A study of Mus musculus with 22 samples.

Results

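The genes followed here were 9 receptors and regulators of T cell activation (Pdcd1, Ctla4, Lag3, Tigit, Cd28, Icos, Tnfrsf4, Tnfrsf9 and Tox), chosen by name from the 31053 genes that every library listed. They were read in T barcodes, which were droplet barcodes with at least 1 UMI (unique molecular identifier, 1 counted transcript molecule) of the T cell receptor complex genes Cd3d, Cd3e or Cd3g. Of 95843 barcodes that passed the quality filter in 22 single-cell libraries, 13555 were T barcodes. The libraries used in comparisons were 9 from solid tissue and 1 from peripheral blood mononuclear cells (PBMC), and a further 10 held ZSG+ cells sorted from blood. The other 2 were tissue libraries of a male of 610 days and a female of 647 days, whose title and strain labels do not agree on the genotype.

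Per the labels, all mice carried Prom1-CreERT2, a Cre recombinase that the Prom1 promoter drives and tamoxifen activates, and Rosa26ZSG, a ZsGreen reporter that recombination switches on. They were Nalcn-wt, Nalcn-het or Nalcn-null, with a floxed Nalcn gene in the last 2 groups. Each tissue library pooled kidney, liver, lung and stomach with the epididymis of males or the uterus of females. The 5 Nalcn-wt tissue libraries came from males of 571 days (replicates 1 and 2) and 608 days (replicate 3) and from females of 611 and 654 days (replicates 4 and 5), the 2 Nalcn-het libraries from males of 551 days, and the 2 Nalcn-null libraries from a male of 552 days (replicate 2) and a female of 611 days (replicate 3). The PBMC library came from a Nalcn-wt male of 120 days. The ZSG+ blood cells (ntCZC, non-tumour circulating ZsGreen+ cells) came from mice of all 3 genotypes aged 551 to 649 days. The recombinase acts where Prom1 was active at induction, so Nalcn was not removed from all cells, and Nalcn itself had 0 to 18 UMIs in a whole tissue library, 6 and 18 of them in the Nalcn-null libraries, too few to check the labels. The labels name no animals, so that libraries of equal age and sex may come from 1 mouse and p-values then measure only the spread between libraries.

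T cell activation is set by receptors that add to or oppose the signal of the T cell receptor. CD28 and ICOS costimulate and share an ancestor with the inhibitory CTLA-4, which competes with CD28 for its ligands CD80 and CD86, while PD-1 (Pdcd1), LAG-3 and TIGIT restrain cells that have met antigen. OX40 (Tnfrsf4) and 4-1BB (Tnfrsf9) are tumour necrosis factor receptors that appear on activated cells, regulatory T cells carry much CTLA-4, and the nuclear factor TOX is required for the exhausted state of CD8 T cells.

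The tissue libraries held 10954 T barcodes among 72758 that passed, from 56 in Nalcn-wt replicate 5 to 3344 in Nalcn-wt replicate 2, with 421107 to 17480701 UMIs per library. The PBMC library held 269 among 679, with 650937 UMIs. The median was 1994.5 UMIs per T barcode in tissue and 2454 in PBMC. Of the tissue T barcodes, 241 held Foxp3 without Cd8a (Foxp3 class), 1072 held Cd4 without Foxp3 or Cd8a (Cd4 class), 1112 held Cd8a without Cd4 or Foxp3 (Cd8a class), 44 were mixed and 8485 (77.5%) held no UMI of the 3 genes (None class). The label T was checked against genes that the rule did not use: Trac, the constant part of the alpha chain, was seen in 30.3% of tissue and 58.0% of PBMC T barcodes, and Trbc2 in 47.8% and 84.4%. In tissue, 56.5% of T barcodes (22.1 to 91.3% by library) also held at least 2 markers of another lineage, most often erythroid genes (33.2%), against 6.69% in PBMC. The labelled sex fitted the levels of Xist and the Y-linked genes except in Nalcn-null replicate 3, a library labelled female with 43.1 CPM (UMI counts scaled to the same total in every library and class) of Y-linked UMIs in its T barcodes, against 230 to 274 in T barcodes of male tissue, 213.5 in the male PBMC library and 0 in the other females. Pairs of libraries shared 4009 barcode sequences in all, of which 16 were T barcodes in both.

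Among the members, Cd28, Ctla4 and Icos lie side by side on the plus strand of mouse chromosome 1, and all 3 fit in 283.5 kb (Cd28 chr1:60716800-60773359, Ctla4 chr1:60887000-60915832, Icos chr1:60977927-61000320; GRCm38/mm10, GENCODE). Pdcd1 lies on the minus strand of the same chromosome (chr1:94038305-94052553). Tnfrsf9 (chr4:150914562-150946102) and Tnfrsf4 (chr4:156013843-156016612) are on the plus strand of chromosome 4, Tox is on its minus strand (chr4:6686353-6991557), and Lag3 (chr6:124904361-124911705) and Tigit (chr16:43648867-43664146) are on minus strands. All 9 are protein-coding genes. RefSeq promoter windows (250 bases before to 50 after a start, GRCm38.p6) were at hand for 5 of the 9 members. Those of the 3 members whose levels set the Foxp3 class apart are given 5′ to 3′ on the plus strand, with NFAT cores (GGAAA or TTTCC), AP-1 sites (TGANTCA) and the letters TATAAA, as written, in capitals.
Ctla4 at chr1:60908775-60909074: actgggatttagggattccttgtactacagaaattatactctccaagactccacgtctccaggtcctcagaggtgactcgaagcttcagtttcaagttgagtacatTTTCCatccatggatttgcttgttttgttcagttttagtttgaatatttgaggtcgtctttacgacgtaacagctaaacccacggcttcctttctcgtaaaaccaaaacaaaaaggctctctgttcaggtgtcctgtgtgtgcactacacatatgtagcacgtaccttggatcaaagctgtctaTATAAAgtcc
Tnfrsf4 at chr4:156013445-156013744: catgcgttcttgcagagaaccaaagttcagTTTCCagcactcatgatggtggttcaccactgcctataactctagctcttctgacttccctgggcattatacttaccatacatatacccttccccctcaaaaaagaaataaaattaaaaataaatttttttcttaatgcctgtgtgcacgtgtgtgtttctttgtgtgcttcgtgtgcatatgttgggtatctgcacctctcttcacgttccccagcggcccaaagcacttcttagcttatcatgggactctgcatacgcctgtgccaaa
Tnfrsf9, first window, at chr4:150919905-150920204: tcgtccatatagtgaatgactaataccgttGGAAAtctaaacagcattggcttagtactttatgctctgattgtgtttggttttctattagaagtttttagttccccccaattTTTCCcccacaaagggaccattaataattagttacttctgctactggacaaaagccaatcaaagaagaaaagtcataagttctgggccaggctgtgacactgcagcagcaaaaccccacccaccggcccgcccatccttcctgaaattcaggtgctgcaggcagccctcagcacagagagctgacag
Tnfrsf9, second window, at chr4:150927749-150928048: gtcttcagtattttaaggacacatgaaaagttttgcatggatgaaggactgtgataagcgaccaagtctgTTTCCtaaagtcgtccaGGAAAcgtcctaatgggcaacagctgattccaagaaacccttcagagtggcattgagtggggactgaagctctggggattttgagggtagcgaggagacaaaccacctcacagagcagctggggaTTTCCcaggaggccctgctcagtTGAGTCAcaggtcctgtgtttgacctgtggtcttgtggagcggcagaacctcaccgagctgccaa
The Ctla4 window held 1 NFAT core and TATAAA once, at bases 291 to 296 of the window and so downstream of the start, the Tnfrsf4 window, which ends before the start of the GENCODE gene, 1 NFAT core, and the Tnfrsf9 windows 2 and 3 NFAT cores with 1 AP-1 site in the second. Of all 32851 RefSeq windows, 61.3% held an NFAT core on either strand, 7.81% an AP-1 site on either strand and 8.32% TATAAA on the strand given. The forkhead letters TGTTTAC, in 3.65% of all windows, were in none of the members' windows.

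The first question was how the members differ between the Foxp3, Cd4 and Cd8a classes of T barcodes within a tissue library. The classes follow detection alone, so the Cd4 class can hold regulatory T cells whose Foxp3 was not seen. Ctla4, Tnfrsf4 and Tnfrsf9 were higher in the Foxp3 class than in the Cd4 class in each of the 5 libraries that could be compared, and no other member was called. Only Nalcn-wt replicates 2 and 4 had 20 or more barcodes of the Foxp3 class (110 and 67). The 3 further libraries with at least 10, Nalcn-wt replicate 1, Nalcn-het replicate 1 and Nalcn-null replicate 3, had 12 to 15.

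Tnfrsf4, the receptor OX40, was at 544 and 634 CPM in the Foxp3 class of Nalcn-wt replicates 2 and 4, and at 144 and 206 CPM in their Cd4 class. In the smaller libraries it was at 355, 433 and 508 CPM in the Foxp3 class, against 56.6, 170 and 127 CPM. Every Foxp3 value lay above every Cd4 value. Non-overlap between classes was not counted over all genes, so that here and below it only describes the members. Tnfrsf9, the receptor 4-1BB, was at 279 and 244 CPM in the Foxp3 class of Nalcn-wt replicates 2 and 4 and at 60.2 and 26.7 CPM in the Cd4 class. In Nalcn-wt replicate 1 its values were close (78.9 and 70.7 CPM, from 6 and 20 UMIs). The gap was wider in Nalcn-het replicate 1 (173 and 31.3 CPM, from 4 and 9 UMIs). It was also wider in Nalcn-null replicate 3 (209 and 31.8 CPM, from 7 and 4 UMIs), so both rest on few molecules. Ctla4 was at 675 and 465.9 CPM in the Foxp3 class against 305 and 290 CPM in the Cd4 class, and at 474, 692 and 658 CPM against 198, 153 and 175 CPM in the other 3. Its 2 classes did not overlap either.

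In the edgeR quasi-likelihood test with library as block, 2 of the 8 members tested were called on Nalcn-wt replicates 2 and 4, while 0.468% of the 7902 genes tested were called. That fit had 1 residual degree of freedom (4 in the fit of 5 libraries below), so that its p-values rest mostly on spread shared across genes. Tnfrsf9 was higher by 2.49 ± 0.26 on the log2 scale (SE, adjusted p = 0.00101) and Tnfrsf4 by 1.76 ± 0.19 (adjusted p = 0.00101). Ctla4, at 0.92 ± 0.19, missed the threshold (adjusted p = 0.0551). Over the 5 libraries with at least 10 barcodes per class (0.49% of 4489 genes called), Ctla4 was called as well, at 1.21 ± 0.24 (adjusted p = 0.0314), with Tnfrsf4 at 1.75 ± 0.25 (adjusted p = 0.00349) and Tnfrsf9 at 2.097 ± 0.364 (adjusted p = 0.0139), and all 3 were higher in the Foxp3 class in 5 of 5 libraries. Differences of the other 5 members tested ran from -0.34 to 0.34 log2 units and none was called. Tigit, an inhibitory receptor of T and NK cells, had 86 UMIs in all tissue T barcodes and was not tested.

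The list of regulatory T genes had 4 of 7 tested members higher in the Foxp3 class of Nalcn-wt replicates 2 and 4, among them Il1rl1 (the interleukin-33 receptor, 3.00 ± 0.38), Ikzf2 (Helios, 1.92 ± 0.29) and Izumo1r (folate receptor 4, 1.73 ± 0.27), with a list median of 1.73 against -0.02 over all genes. Of 7 other costimulatory receptors tested, Tnfrsf18 (GITR), a neighbour of Tnfrsf4 in the same receptor family, was higher by 1.79 ± 0.24, and of the tissue and activation genes Itgae (CD103) was higher by 2.73 ± 0.39. Tcf7, a factor of naive and memory T cells, fell by 1.49 ± 0.28. In the fibroblast list, Dcn and Col3a1 (2 of 4 markers) were higher as well, with summed markers at 252 to 1316 CPM in the Foxp3 class of these 2 libraries, against 0 to 411 CPM in the Cd4 class of 8 libraries. Over the 5 libraries with at least 10 barcodes the sums were 0 to 1316 CPM (median 0) in the Foxp3 and 7.95 to 411 CPM (median 72.95) in the Cd4 class, and 0 of 3 fibroblast markers tested were called. The part of fibroblast RNA in the members' differences was not tested. As an alternative, barcodes holding 2 or more markers of another lineage (haemoglobin and hepatocyte genes not counted) were left out. That gave 3 members called over the libraries with at least 10 barcodes and 0 over Nalcn-wt replicates 2 and 4. In these 2 libraries the differences were 1.77 for Tnfrsf4 (adjusted p = 0.15) and 2.17 for Tnfrsf9 (adjusted p = 0.0928). The calls rest on few libraries: with at least 10 barcodes, leaving out Nalcn-wt replicate 2 left 0 members called, and leaving out Nalcn-het replicate 1, Nalcn-null replicate 3 or Nalcn-wt replicate 4 left 1 each.

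**Figure D1:**
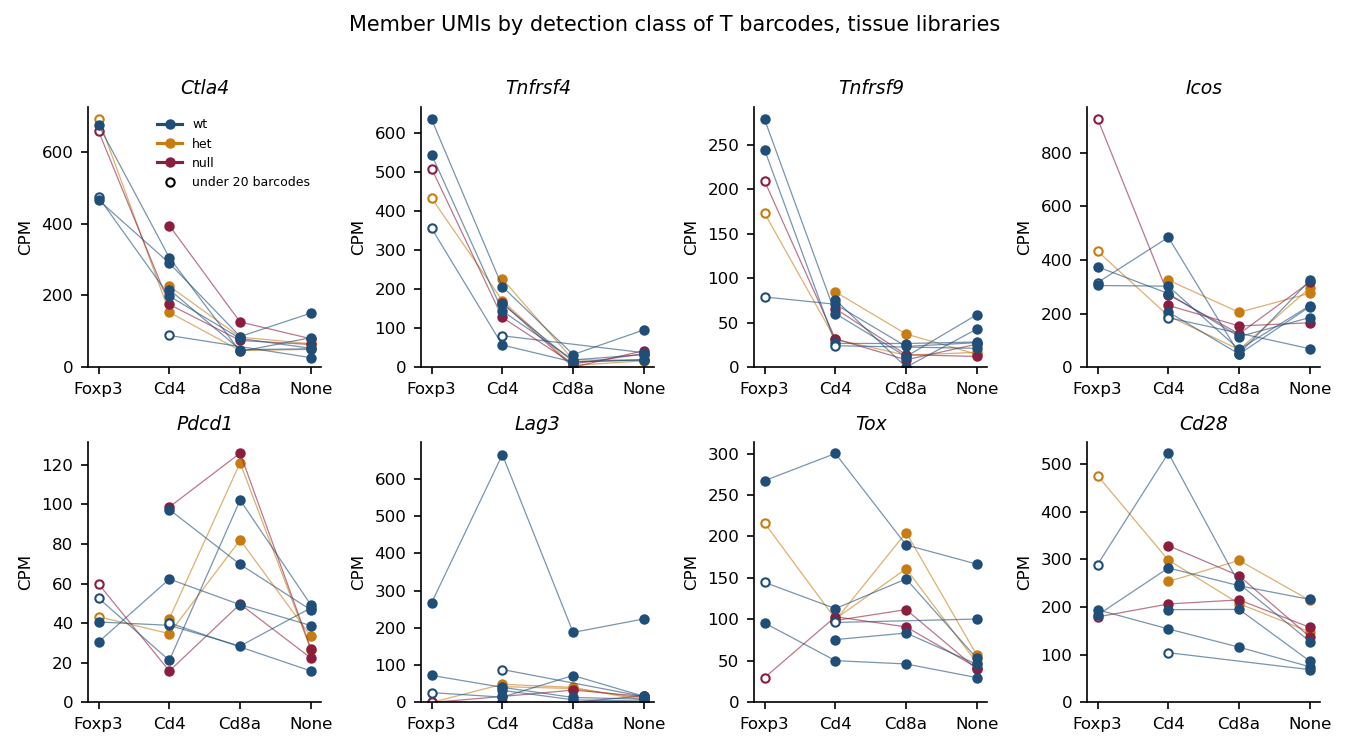
Level of 8 members (CPM, linear axes from 0) in the Foxp3, Cd4, Cd8a and None classes of T barcodes of each tissue library, with lines joining the classes of 1 library, colours for Nalcn-wt, Nalcn-het and Nalcn-null, and open points for classes of 10 to 19 barcodes. Ctla4 and Tnfrsf4 step down from the Foxp3 to the Cd4 to the Cd8a class, and Lag3 stands far above the other libraries in Nalcn-wt replicate 4 (665 CPM in its Cd4 class).

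Between the Cd8a and Cd4 classes, 4 members differed, all lower in the Cd8a class: Tnfrsf4, Ctla4, Icos and Tnfrsf9. Pdcd1, Tox, Cd28 and Lag3 were not called. The comparison used 8 libraries, since Nalcn-wt replicate 5 had 15 and 9 barcodes. Tnfrsf4 was at 56.6 to 226 CPM (median 163) in the Cd4 class and at 0 to 32.3 CPM (median 13.6) in the Cd8a class. Ctla4 ran from 153 to 395 CPM (median 221) and from 43.7 to 126 CPM (median 77.2). For both genes the lowest Cd4 value was above the highest Cd8a value, a description that was not counted over all genes. Icos, whose protein guides helper cells in germinal centres and in tissue, was at 191 to 484 CPM (median 272) against 48.8 to 205 CPM (median 90.1), so that the classes overlapped between 191 and 205 CPM. Tnfrsf9 was at 26.7 to 84.6 CPM (median 63.0) against 0 to 37.2 CPM (median 13.7), with some overlap.

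The log2 differences of the Cd8a from the Cd4 class were -3.08 ± 0.28 for Tnfrsf4 (SE, adjusted p = 1.81e-05), -1.74 ± 0.19 for Ctla4 (adjusted p = 0.000102), -1.63 ± 0.26 for Icos (adjusted p = 0.00323) and -1.47 ± 0.35 for Tnfrsf9 (adjusted p = 0.0475), each lower in 8 of 8 libraries, while 1.66% of 4941 genes were called. The first 3 were called under all 19 alternatives, those without Nalcn-null replicate 3 included. Tnfrsf9 was called in 7 of 17, and without Nalcn-null replicate 3 its adjusted p was 0.0514. Tnfrsf4 and Tnfrsf9 passed the filter on low counts only through the Cd4 class. Their calls therefore give no support beyond the levels given above. Pdcd1 was at 28.5 to 126 CPM (median 75.9) in the Cd8a class and 15.9 to 98.7 CPM (median 40.6) in the Cd4 class, a difference of 0.54 ± 0.31 (adjusted p = 0.61) with 5 of 8 libraries higher. Tox (0.19 ± 0.19) and Cd28 (-0.25 ± 0.15) moved by less than Pdcd1, and their classes overlapped over most of the range. Lag3 differed by -0.65 ± 0.42 (adjusted p = 0.731), but was called lower in 2 of 17 alternatives, without Nalcn-wt replicate 1 (-1.23, adjusted p = 0.0357) and without barcodes holding 2 or more markers of another lineage (-1.70, adjusted p = 0.00512).

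Of the regulatory T list, 3 of 4 tested genes were lower in the Cd8a class (Izumo1r at -2.62 ± 0.25, Areg, amphiregulin, at -2.06 ± 0.25, and Ikzf2 at -1.55 ± 0.19), although barcodes with a Foxp3 UMI were in neither class. Of the other costimulatory receptors 1 of 5 was lower (Tnfrsf18, -0.82 ± 0.18), and of the other inhibitory receptors 1 of 6 (Cd5, -1.11 ± 0.20). The gamma chain constant gene Tcrg-C2 was higher by 2.96 ± 0.54. No B cell, endothelial, epithelial, erythroid, fibroblast, hepatocyte, macrophage or neutrophil marker that was tested was called, and no NK, dendritic or mast cell marker passed the filter.

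Shares of barcodes gave the same order at equal depth. With each barcode thinned to 1000 UMIs, 42.0% of 224 Foxp3 barcodes held a Ctla4 UMI, against 21.7% of 950 Cd4 and 6.004% of 1016 Cd8a barcodes (17, 122 and 96 shallower barcodes left out). Tnfrsf4 was seen in 40.6%, 13.0% and 1.28%, and Tnfrsf9 in 21.4%, 3.58% and 1.77%. The step from the Cd4 to the Cd8a class in Tnfrsf9 held in 5 of 8 libraries only, on few positive barcodes. Icos was seen in 36.2%, 23.5% and 8.56%. Pdcd1 was seen in 4.02%, 4.63% and 6.99%, Tox in 14.3%, 13.7% and 14.5%, and Cd28 in 19.6%, 24.1% and 20.3%. These pooled shares weight libraries by their barcodes, and Nalcn-wt replicate 4 held 390 of the 1072 Cd4 barcodes and had the highest Tox share there (27.6%). Within libraries Tox was higher in the Cd8a class in 7 of 8, Pdcd1 in 5 of 8 and Cd28 in 2 of 8 at this thinned depth, and in CPM Tox was higher in 5 of 8. Macrophage-like barcodes, which should lack these genes, held Ctla4 in 0.369%, Icos in 0.433% and Cd28 in 0.641% at the same thinned depth, from a median of 2414 UMIs before thinning. The shares were higher in erythroid-like barcodes (median 1830 UMIs), with Ctla4 in 1.15%, Icos in 2.69%, Cd28 in 1.69%, Tnfrsf4 in 0.646% and Tnfrsf9 in 0.610%, and in hepatocyte-like barcodes (median 1387 UMIs) Icos was in 2.84%, Cd28 in 2.03% and Tnfrsf9 in 0.811%. The shares of Tnfrsf4 and Tnfrsf9 in the Cd8a class lay within the Clopper-Pearson intervals of the hepatocyte-like barcodes (up to 1.46% and 2.06%) and are not read as expression.

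Several members were often met in 1 barcode. At 1000 UMIs, 58.5% of Foxp3 barcodes held UMIs of at least 2 members, against 35.3% of Cd4, 15.1% of Cd8a and 17.2% of None barcodes, and up to 6 members were seen together. Of barcodes with Tnfrsf4, 37.3% also held Ctla4, which was in 10.2% of all tissue T barcodes. Of those with Tnfrsf9, 44.3% held Icos (20.1% of all), and of those with Pdcd1, 36.9% did. Lag3 and Tox were paired as well, with Tox in 33.5% of Lag3 barcodes and in 9.44% of all. These shares pool libraries and classes of unlike levels.

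The None class, with no UMI of Cd4, Cd8a or Foxp3, held most T barcodes. In it, 1154 of 8485 barcodes (13.6%) had a UMI of Trdc, the constant gene of the delta chain, and this split was added after the values were seen. The Trdc-positive barcodes had more Pdcd1, Icos and Tnfrsf9 and less Cd28, Tnfrsf4, Lag3 and Ctla4 than the other None barcodes of the same 8 libraries. Icos was at 290.5 to 750.5 CPM (median 463) with Trdc and 144 to 302 CPM (median 215) without, higher in 8 of 8 libraries. Cd28 was at 8.33 to 113 CPM (median 58.1) against 95.03 to 228 CPM (median 153), lower in 8 of 8. Pdcd1 ran from 0 to 211 CPM (median 66.9) against 16.2 to 37.8 CPM (median 24.3) and was higher in 6 of 8. Tnfrsf9, from 0 to 179 CPM (median 45.9) against 12.5 to 28.4 CPM (median 18.6), was higher in 5 of 8 and lower in 3.

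In the edgeR test with library as block, 7 of 8 members were called, while 4.84% of 10571 genes were. Those higher were Pdcd1 (2.05 ± 0.34 log2 units, adjusted p = 0.000414), Tnfrsf9 (1.88 ± 0.31, adjusted p = 0.000418) and Icos (1.06 ± 0.15, adjusted p = 4.49e-05). Those lower were Tnfrsf4 (-2.63 ± 0.35, adjusted p = 3.33e-05), Cd28 (-2.04 ± 0.24, adjusted p = 6.14e-06), Lag3 (-1.33 ± 0.30, adjusted p = 0.00763) and Ctla4 (-1.13 ± 0.24, adjusted p = 0.00465). Ctla4 lost its call without Nalcn-wt replicate 2 (adjusted p = 0.0596) and Lag3 without Nalcn-wt replicate 4 (adjusted p = 0.0988). Tcrg-C1 (3.73 ± 0.21) and Trdv4 (5.48 ± 0.33), genes of the gamma and delta chains, were higher, as were Cxcr6 (1.76 ± 0.19) and Il2ra (2.03 ± 0.20), while Trac fell by 1.95 ± 0.18, Cd5 by 2.35 ± 0.27 and Cd27 by 1.72 ± 0.21. Markers of other lineages were also lower with Trdc, namely Csf1r and Cd68 (2 of 5 macrophage markers), Cd79a (1 of 4 B cell markers), Col1a1 (1 of 4 fibroblast markers) and Ccl22 (the 1 dendritic gene tested). Their part in the result was not tested.

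The next question was how T barcodes of tissue differ from those of blood. Pdcd1, Ctla4, Icos and Tnfrsf4 were higher in the T barcodes of tissue than in those of PBMC, and Cd28 was lower in CPM. Tox was not called. Pdcd1 was at 24.3 to 61.4 CPM (median 41.7) in the 9 tissue libraries and had 1 UMI in PBMC (1.54 CPM), a ratio of means of 26.5 with a counting interval of 4.76 to 1048. Ctla4 was at 62.0 to 171 CPM (median 80.7; 93.6 ± 35.2, SD, n = 9) in tissue and at 9.22 CPM (6 UMIs) in PBMC, 10.2-fold apart. Every tissue library was above PBMC for both genes. Icos was at 116 to 313 CPM (median 226; 224 ± 60.6, SD, n = 9) against 53.8 CPM (35 UMIs), 4.17-fold. Tnfrsf4 was at 27.6 to 117 CPM (median 46.5) against 3.07 CPM (2 UMIs), a ratio of 17.1 with a counting interval of 4.73 to 141. Tnfrsf9 was at 17.0 to 63.8 CPM (median 32.6; 34.0 ± 14.2, SD, n = 9) against 6.15 CPM (4 UMIs), 5.54-fold. For these 3 as well, PBMC lay below all 9 tissue libraries. Such non-overlap was not counted over all genes, so that here and below it only describes the members.

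Lag3, an inhibitory receptor that binds MHC class II, was at 5.64 to 283 CPM (median 16.1) in tissue and had 0 UMIs in PBMC, where 3 counts would be 4.61 CPM. Its mean was at least 11.02-fold above that floor with all libraries, and at least 4.72-fold (21.7 ± 16.6 CPM, SD, n = 8) without Nalcn-wt replicate 4. Tigit had 0 UMIs in PBMC and was at 0 to 5.20 CPM in tissue, near or under the floor. Tox was at 36.2 to 190 CPM (median 72.5; 81.5 ± 48.7, SD, n = 9) in tissue and at 81.4 CPM (53 UMIs) in PBMC, with 3 of 9 tissue libraries above. Cd28 was at 91.6 to 228 CPM (median 164; 162 ± 49.1, SD, n = 9) in tissue and at 381 CPM (248 UMIs, counting interval 335 to 431.5) in PBMC, which was 2.36-fold higher and above all 9 libraries.

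**Figure D2:**
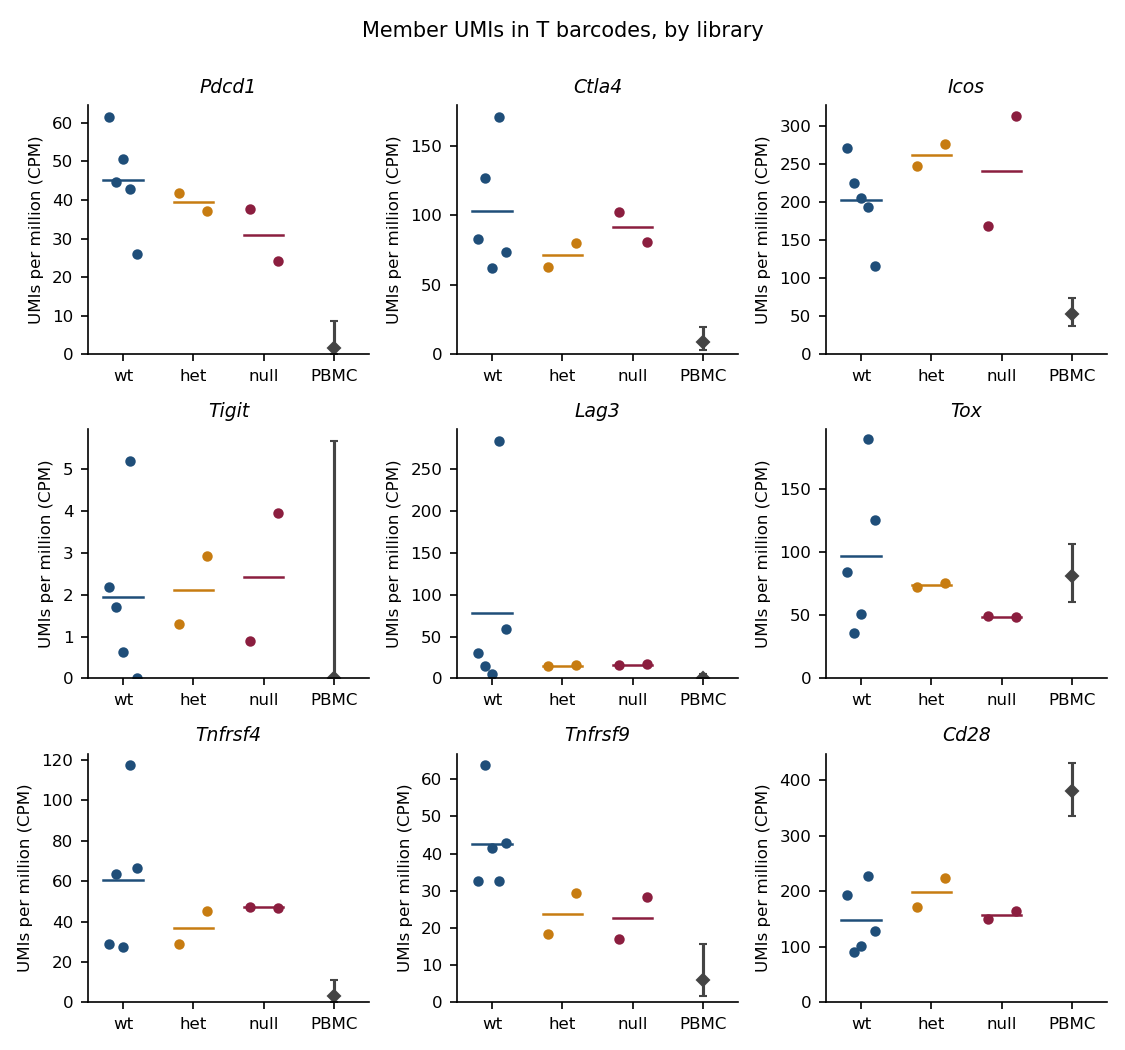
Level of each of the 9 members in T barcodes (CPM, linear axes from 0), with 1 point per tissue library, the line at the mean of each genotype (wt n = 5, het n = 2, null n = 2), and the single PBMC library as a diamond with its 95% counting interval. PBMC lies below every tissue library for Pdcd1, Ctla4, Icos, Lag3, Tnfrsf4 and Tnfrsf9 and above every one for Cd28, and Tnfrsf9 is higher in all 5 wt libraries than in the het and null libraries. Such non-overlap was not counted over all genes, and the lowest Lag3 library (5.64 CPM) lies inside the PBMC interval (0 to 5.667 CPM).

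Over all T barcodes, edgeR with sex as covariate called 5 of 8 members tested and 16.1% of 12669 genes, whose median difference was 0.40. Pdcd1 was higher in tissue by 4.83 ± 0.68 log2 units (adjusted p = 0.00197), Tnfrsf4 by 3.68 ± 1.00 (adjusted p = 0.0323), Ctla4 by 3.20 ± 0.73 (adjusted p = 0.0161) and Icos by 2.08 ± 0.53 (adjusted p = 0.0257), and Cd28 was lower by -1.34 ± 0.40 (adjusted p = 0.0451). Tnfrsf9 (2.46 ± 0.94, adjusted p = 0.0925), Tox (-0.45 ± 0.57, adjusted p = 0.602) and Lag3 (adjusted p = 0.218) were not called. The PBMC library had no replicate and was taken to vary like the tissue libraries. An exact permutation test of 1 library against 9 cannot go below p = 0.1. For Pdcd1, with 1 UMI in PBMC, the SE does not cover the counting interval of the ratio, 4.76 to 1048. Pdcd1 and Tnfrsf4 (2 UMIs in PBMC) passed the filter on low counts only through tissue. Their calls therefore give no support beyond the counts themselves. Blood cannot be told apart from the younger age of that mouse. Handling cannot either, since the paper describes enzymatic dissociation and hashtagging for solid tissue and no multiplexing for blood cells. Without Nalcn-null replicate 3, 5 members were called as well. With barcodes thinned to 1000 UMIs, Pdcd1 was left at 0 UMIs in PBMC and so was tested only through tissue, and its remaining call gives no support. No other member was called at that depth, with Ctla4 at 3.92 (adjusted p = 0.0525), Icos at 2.57 (adjusted p = 0.0953) and Tnfrsf4 at 3.53 log2 units (adjusted p = 0.117).

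The comparison of Cd28 and of Tox depended on the scale. The Cd3 scale divides by the genes that chose the T barcodes, so its values are a description with no test. Per 100 UMIs of Cd3d, Cd3e and Cd3g together, Cd28 was at 11.5 to 25.1 (median 17.55) in tissue and at 16.0 in PBMC, inside the tissue range. Tox was at 4.42 to 24.65 per 100 Cd3 UMIs in tissue, and PBMC, at 3.42, was below all 9 libraries. Icos was at 15.2 to 31.2 against 2.26, and Ctla4 at 6.28 to 17.5 against 0.387. Pdcd1, at 2.26 to 6.77 against 0.0644, kept its direction too. The call of Cd28 was made in 10 of 20 alternatives and was lost without barcodes of other lineages (-0.67, adjusted p = 0.302). RNA of other cells in a T barcode and less Cd28 RNA per T cell cannot be told apart on the CPM scale.

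**Figure D3:**
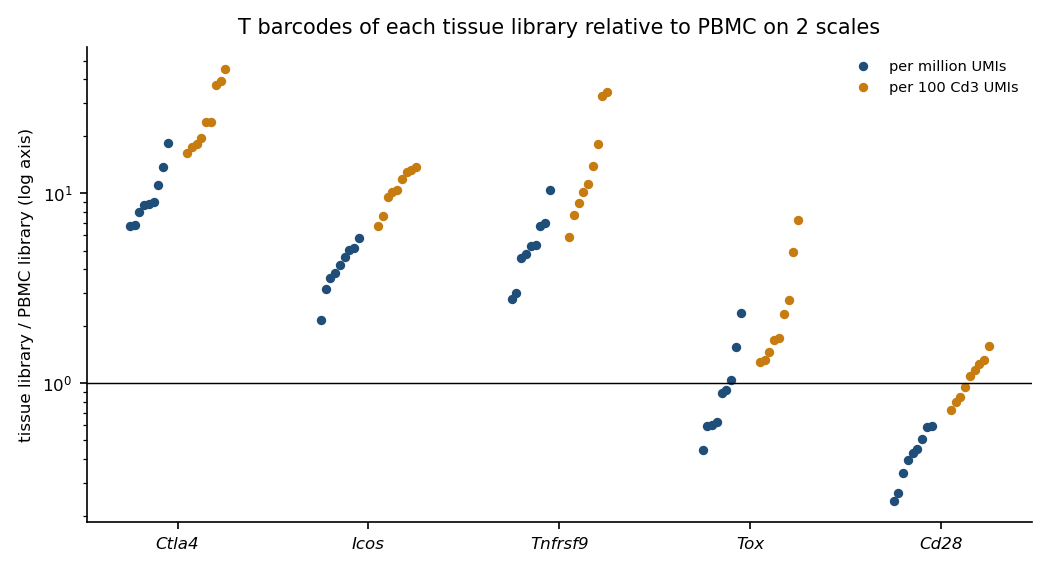
Ratio of each tissue library to the PBMC library (log axis, line at 1) for the 5 members with at least 4 UMIs in PBMC, in CPM (blue) and per 100 Cd3 UMIs (orange), 9 points each. All points of Ctla4, Icos and Tnfrsf9 are above the line on both scales, while Cd28 is below it on the first and straddles it on the second, and Tox straddles it on the first and is above it on the second.

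The marker genes of other cells moved in the same comparison. Summed epithelial markers were at 145 to 729 CPM in T barcodes of tissue and all 4 were at 0 in PBMC, as were all 4 fibroblast markers (13.6 to 418 CPM in tissue). Endothelial markers were at 280 to 426 CPM against 114 (Cdh5, Kdr and Egfl7 at 0 in PBMC), macrophage and monocyte markers at 578 to 3607 CPM against 532 (C1qa and Adgre1 at 0), and erythroid markers at 3160 to 14850 CPM against 4633. Without barcodes that held 2 or more such markers, Pdcd1 (5.52), Ctla4 (4.26), Icos (2.79) and Tnfrsf4 (3.99 log2 units) were called, with adjusted p = 0.0442 or less. The limit given above for the calls of Pdcd1 and Tnfrsf4 holds here too. Of the T cell genes that the choice of T barcodes did not use, Trac (-1.81 ± 0.28), Trbc2 (-2.28 ± 0.35) and Lck (-2.07 ± 0.32) were lower in tissue.

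Over all genes tested, 1405 were higher and 631 lower in tissue. Around the members, 4 of 8 naive and recirculating T genes were lower in tissue, among them Tcf7 (-2.57 ± 0.33) and Lef1 (-3.48 ± 0.47), and 3 of 8 tissue and activation genes were higher, which were Cd44 (3.01 ± 0.59), Rgs1 (2.57 ± 0.60) and the collagen-binding integrin Itga1 (2.01 ± 0.36). Of the partners and regulators, 3 of 13 were higher, among them Nr4a3 (4.44 ± 0.47) and Nr4a2 (4.48 ± 0.54), and Tcf7 was the 1 lower. T cell receptor signals induce Nr4a3 and Nr4a2, but tissue and blood also differed in handling, and the cause was not tested. Of the other inhibitory receptors, 3 of 10 tested were lower, namely Cd5 (-2.14 ± 0.37), Cd96 (-1.73 ± 0.40) and Vsir (-0.72 ± 0.21), and of the 8 other costimulatory receptors 0 were called. Of the signalling genes, Lck (-2.07 ± 0.32), Lat (-1.16 ± 0.27) and Themis (-1.86 ± 0.54) were lower. The summed T cell markers, Cd3 genes included, were lower as well, at 1097 to 2149 CPM in tissue against 4984 CPM in PBMC. Lower levels of the T cell genes named here therefore cannot be told apart from RNA of other cells on the CPM scale. Of 11 ligands, Pdcd1lg2 and Cd80 were called higher, both at 0 in PBMC and so tested only through tissue; PD-L2 and CD80 are made by antigen-presenting cells.

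Within the Cd4 class, Ctla4 was higher in tissue (8 libraries) than in PBMC (1 library, 63 barcodes), with 3.47% of 4155 genes called. Ctla4 had 2 UMIs in PBMC, a ratio of 17.65 with a counting interval of 4.89 to 146 (4.01 ± 0.79 log2 units, adjusted p = 0.0168). Ctla4 passed the filter on low counts only through tissue, so its call gives no support beyond that interval. It was called in 17 of 19 alternatives, and the difference stayed at 3.75 with at least 2 Cd3 UMIs per barcode (adjusted p = 0.0813) and at 3.10 with thinned barcodes (adjusted p = 0.0865), where the call was lost. Without Nalcn-null replicate 3 it was 4.02 (adjusted p = 0.0311). Tnfrsf4 and Tnfrsf9 had 0 UMIs in PBMC and so passed the filter on low counts only through tissue. Their levels are a description with no test, and their tissue means of 157 ± 51.5 and 55.9 ± 22.7 CPM (SD, n = 8) were at least 7.55-fold and 2.69-fold above the floor of 20.8 CPM. Icos was at 191 to 484 CPM against 48.5 CPM and just missed the threshold (2.52 ± 0.65, adjusted p = 0.0503), passing it under 10 of 19 alternatives. Icos also passed the filter on low counts only through tissue. On simulated data, the fits against the single PBMC library recovered few of the changes put in, and in the Cd4 and Cd8a classes more of their calls were false than the threshold allows. Calls near the threshold and missing calls in these classes are therefore weak evidence.

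In the Cd8a class, PBMC had 42 barcodes and edgeR called 0 of 6 members tested, with 2.07% of 3725 genes called. At an unadjusted p under 0.05 there were 2 members, beside 554 genes higher and 351 lower of the same 3725, so that this count is no result about the members. They were Pdcd1 (adjusted p = 0.0848) and Ctla4 (adjusted p = 0.0631), and DESeq2 called 0. Both had 0 UMIs in PBMC, so they passed the filter only through tissue, and were above the floor of 25.02 CPM in 8 of 8 tissue libraries, at 28.5 to 126 CPM and 43.7 to 126 CPM. Icos (48.8 to 205 CPM against 58.4) and Cd28 (116 to 298 CPM against 183.5) in PBMC fell inside the tissue range, and Tox, at 75.1 CPM in PBMC, did as well. Above PBMC were 6 of 8 tissue libraries for Icos and 7 of 8 for Cd28 and for Tox. Cd28 thus had another direction here than in the Cd4 class, where PBMC, at 589 CPM, was above all 8 (154 to 523 CPM). No PBMC barcode was in the Foxp3 class, and 0 of 269 allows a share of up to 1.115% of barcodes in that class, which does not limit the share of cells that express Foxp3.

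Shares of T barcodes at 1000 UMIs showed the same gap between tissue and blood. Of 9369 tissue T barcodes (1585 shallower left out), 5.33% held Pdcd1, 10.2% Ctla4, 20.1% Icos, 5.55% Tnfrsf4 and 4.10% Tnfrsf9. Of 233 PBMC T barcodes (36 left out), 0 held Pdcd1, which allows up to 1.29% by the limit of 3 counts (Clopper-Pearson upper bound 1.57%), and 0.858% held Ctla4, 5.15% Icos, 0.429% Tnfrsf4 and 0.858% Tnfrsf9. Cd28 was in 16.5% of tissue and 25.8% of PBMC T barcodes (95% Clopper-Pearson interval 20.3 to 31.9%), and Tox in 9.44% and 10.3%. At least 2 members were met in 19.8% of tissue and 5.15% of PBMC T barcodes. Intervals and floors cover counting error only.

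**Figure D4:**
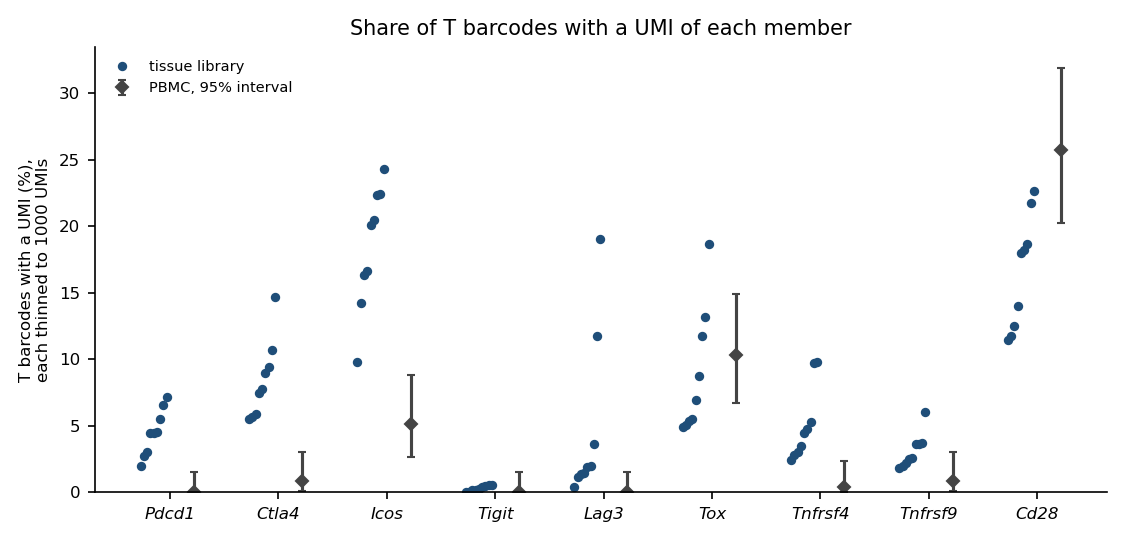
Share of T barcodes with a UMI of each member after thinning to 1000 UMIs, with 1 point per tissue library (9 per gene) and the PBMC library as a diamond with its 95% Clopper-Pearson interval. For Pdcd1, Ctla4, Icos, Tnfrsf4 and Tnfrsf9 all tissue points lie above the PBMC point, and for Cd28 all lie below it.

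The ZSG+ cells sorted from blood gave another blood source, from old mice. They held 181 T barcodes in 10 libraries, of which 25 carried at least 2 B cell markers, including all 20 of Nalcn-het replicate 3, which had neither Trac nor Trbc2. The other 156 (779764 UMIs) had Cd28 at 237 CPM (counting interval 204 to 274), between PBMC (381 CPM) and the highest tissue library (228 CPM). Ctla4 was at 23.1 CPM (13.7 to 36.5) and Icos at 117 CPM (94.0 to 143). PBMC was lower, at 9.22 CPM (3.38 to 20.1) and 53.8 CPM (37.5 to 74.8), with overlapping intervals for Ctla4. Ctla4 of the ZSG+ cells lay below all 9 tissue libraries (lowest 62.0 CPM), and their Icos was near the lowest of these (116 CPM). Pdcd1 and Tnfrsf9 were each at 18.0 CPM, Tnfrsf4 at 24.4, Lag3 at 21.8 and Tox at 34.6 CPM. Of these, Pdcd1, Tnfrsf4 and Tox lay below all 9 tissue libraries, and Tnfrsf9 and Lag3 within their range. Single libraries weighed much: 9 of 14 Pdcd1 UMIs came from Nalcn-wt replicate 1 and 5 from Nalcn-het replicate 4. For Lag3, 6 of 17 UMIs came from 1 barcode of Nalcn-wt replicate 3. No test was run on these cells, which a ZsGreen gate had selected, and the barcodes of all genotypes were pooled. Without those carrying B cell markers, only Nalcn-wt replicate 1 (42) and Nalcn-het replicate 4 (67) held at least 20 barcodes.

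No member was called between genotypes, in the Nalcn-null or in the Nalcn-het tissue libraries against Nalcn-wt. edgeR called 0 of 8 members and 0% of 11910 genes in both (at an unadjusted p under 0.05, 0 members in each, 421 genes higher and 345 lower in Nalcn-null, and 354 higher and 548 lower in Nalcn-het), and DESeq2 called 0 members in both. Tnfrsf9 was at 32.6, 63.8, 41.4, 32.7 and 42.7 CPM in Nalcn-wt replicates 1 to 5, at 18.3 and 29.4 CPM in Nalcn-het and at 17.0 and 28.2 CPM in Nalcn-null. All Nalcn-wt values lay above the other 4, yet the differences of -0.91 ± 0.41 (het, adjusted p = 0.664) and -0.84 ± 0.41 (null, adjusted p = 0.767) were within the spread that the test allows. Tox was at 48.5 and 49.3 CPM in Nalcn-null, inside the Nalcn-wt range of 36.2 to 190 CPM (-0.83 ± 0.40, adjusted p = 0.766). Pdcd1 was at 24.3 and 37.6 CPM in Nalcn-null and 26.1 to 61.4 CPM in Nalcn-wt (-0.48 ± 0.23, adjusted p = 0.76). Without Nalcn-null replicate 3, which goes against its labelled sex in part, 0 members were called as well.

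Lag3 varied most between libraries. It was at 283 CPM in Nalcn-wt replicate 4, where 745 of 2904 T barcodes (25.7%) held 1634 UMIs and up to 25 in 1 barcode, and at 59.4 CPM or less in the other 8. By class of that library it was at 665 CPM in Cd4, 267 in Foxp3, 188 in Cd8a and 224 CPM in None barcodes. The same library had the highest Ctla4 (171 CPM), Tnfrsf4 (117 CPM), Tox (190 CPM) and Cd28 (228 CPM) of the 9.

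Pooled over the tissue libraries, most UMIs of each member were in T barcodes, which made up 15.1% of the barcodes and 14.2% of all UMIs. The share was 87.0% for Pdcd1, 81.3% for Icos, 76.2% for Ctla4, 75.9% for Tnfrsf4, 72.0% for Cd28, 67.0% for Tnfrsf9, 63.0% for Tox and 60.4% for Lag3. Single libraries differed widely, down to 14.1% for Lag3, 32.5% for Tox, 38.8% for Tnfrsf9, 39.55% for Tnfrsf4, 40.7% for Icos and for Cd28, 44.7% for Ctla4 and 53.2% for Pdcd1 (8 libraries). Outside T barcodes, NK-like barcodes (201, with at least 2 NK markers and no Cd3 UMI) held Tnfrsf9 at 104 CPM, Cd28 at 80.7 and Tox at 74.9 CPM. B-like barcodes (4305) held Ctla4 at 26.7 CPM (6.34 to 53.5 CPM over 8 libraries). Their Tox, at 33.5 CPM, came mostly from Nalcn-wt replicate 4 (268 of 291 UMIs, 54.4 CPM), with a median over libraries of 6.495 CPM. The plasmacytoid dendritic-like barcodes (84) held Lag3 at 228 CPM, with 16 of 42 UMIs in the same library. Pdcd1 was at 1.84 CPM in the B-like and at 0 UMIs in the other 2 classes.

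Over the 27 sums of class and library in tissue, the genes most like each member were ranked among 8663 genes by Pearson's r of log2(CPM + 10), as a description over sums that share libraries. Tnfrsf4 was the nearest gene to Ctla4 (r = 0.847), ahead of Sdf4 (0.846) and Izumo1r (0.827), and Tnfrsf4 (0.789) and Ctla4 (0.777) followed Phlpp1 (0.832) for Tnfrsf9. Izumo1r was the nearest to Tnfrsf4 (0.895). Tox was nearest to Ptprc (0.887) and Fyn (0.859), and Cd28 to Ets1 (0.868) and Cd6 (0.817). Lag3 was nearest to Tap1 (0.817). Pdcd1 (Exoc4, 0.707) and Icos (Uhrf2, 0.683) had the lowest top values.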

How the data were processed

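Single-cell RNA libraries (10x 3′ v3) of tissue, PBMC and sorted ZSG+ blood cells were used as deposited. The authors aligned reads to mm10 with Cell Ranger (version 2.1.1 in the submitters' processing notes, 3.0.2 in the matrix headers) and deposited filtered matrices of UMI counts per gene and barcode, which are not normalized. The study describes hashtag demultiplexing of the tissue suspensions; the hashtag counts were not used here, so organs stayed pooled.

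A barcode was kept where 200 or more genes were detected and mitochondrial UMIs made up no more than 25%. T barcodes were classed by Cd4, Cd8a and Foxp3 detection as given above, and classes of at least 20 barcodes per library were used. Barcodes with high Scrublet scores were kept, and removed as an alternative (0.348 to 14.6% of barcodes per tissue library). Counts were summed per library and class, and CPM is a gene's share of that sum, scaled as given above. Sums were compared with edgeR 4.0.16 (TMM scaling, filterByExpr, quasi-likelihood test, Benjamini-Hochberg adjusted p under 0.05 over all genes tested), with library as block between classes and sex as covariate between tissue and PBMC and between genotypes. All 3 genotypes entered 1 genotype fit, and both mutant genotypes shared the Nalcn-wt libraries. Fold changes are on the log2 scale with edgeR's prior count. Each SE is the log2 difference divided by the square root of the quasi-likelihood F statistic, and was not estimated apart from the test. Analyses used Python 3.11.15, scanpy 1.11.5, R 4.3.3 and limma 3.58.1, and DESeq2 1.42.0 served as an alternative. Code was tested on simulated data, where the fits against the single PBMC library recovered few changes, with more false calls in its Cd4 and Cd8a classes than the threshold allows.

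The members and gene lists were chosen with earlier results of these data known. Named genes were all members and, from each list, up to 3 called genes of lowest adjusted p. The 2 tissue libraries whose title and strain labels do not agree on the genotype entered no comparison. Other alternatives were RLE scaling, no filter on low counts, all deposited barcodes, at least 2 Cd3 UMIs, removal of barcodes with markers of other lineages, thinning, other covariates, and leaving out each library. The split by Trdc, the removal that did not count haemoglobin and hepatocyte genes, and the settings combined with at least 10 barcodes were chosen after seeing the data. T barcode sums held 421107 to 17480701 UMIs per tissue library, and 3 UMIs, taken as the limit of a count of 0, are 4.61 CPM in the PBMC library.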

Additional observations from a re-analysis of the deposited data

Results flagged for a closer look

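Lag3 stood at 283 CPM in the T barcodes of Nalcn-wt replicate 4, apart from the other Nalcn-wt libraries and from all 9 tissue libraries, of which the next held 59.4 CPM. Tnfrsf4 stood apart in the same library among all 9, at 117 CPM with the next at 66.5 CPM. Over 36 such tests of a highest or lowest library, chance marks about 1 in 20 groups. That library also had 2904 T barcodes, and the part of depth, age or sex in these values was not tested.

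In the library titled as Nalcn-het replicate 3, whose strain label reads Nalcn-null, Pdcd1 was at 73.4 CPM and Cd28 at 254.5 CPM in T barcodes, above every Nalcn-wt tissue library (highest 61.4 and 228 CPM). It entered no comparison and has no group.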

How the results depend on the processing

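Log2 differences under alternatives were counted only for members called in at least 1 setting of a comparison. Of these 451 differences, 373 kept their direction and side of the threshold, 50 lost the call, 28 gained one and 0 reversed. Members never called in a comparison were left out, so reversals among them were not counted. For the Foxp3 against the Cd4 class, 2 members became 0 without barcodes of other lineages (haemoglobin and hepatocyte genes not counted) and 0 without the library block, with Tnfrsf4 at 1.77 and 1.73 and Tnfrsf9 at 2.17 and 2.53 log2 units. With at least 10 barcodes per class, leaving out 1 library gave 0 to 3 (1 without Nalcn-het replicate 1, Nalcn-null replicate 3 or Nalcn-wt replicate 4, 0 without Nalcn-wt replicate 2). Leaving out a library at 20 barcodes, and removing barcodes of all other lineages there, could not be fitted. In tissue against PBMC, thinning left 1 of 5 members called over all T barcodes (Pdcd1, then at 0 UMIs in PBMC) and 0 of 3 in the Cd4 class (2 of them with 0 UMIs in PBMC), where at least 2 Cd3 UMIs also gave 0, with Ctla4 at 3.10 and 3.75 log2 units. In the Cd8a class, where the calls gained were of Pdcd1 or Ctla4, both at 0 UMIs in PBMC, 0 members became 2 with no filter on low counts, 1 with all deposited barcodes, 2 without barcodes of other lineages, 1 with haemoglobin and hepatocyte genes not counted, 1 without the sex covariate, and 0 to 1 when leaving out 1 library (1 without Nalcn-wt replicate 2). The cause was not tested.

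Mean shares over libraries moved with depth. Thinned to 500 UMIs they were 2.38% for Pdcd1, 5.39% for Ctla4, 11.9% for Icos and 9.86% for Cd28, and not thinned 9.44% for Pdcd1, 15.2% for Ctla4, 29.8% for Icos, 0.593% for Tigit, 18.7% for Tox, 9.56% for Tnfrsf4, 6.91% for Tnfrsf9 and 30.7% for Cd28.

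Counts of all genes called ranged over alternatives from 0 to 154 (37 as reported, Foxp3 class), 32 to 277 (82, Cd8a against Cd4 class), 231 to 2370 (2036, T barcodes against PBMC), 43 to 432 (144, Cd4 class), 0 to 236 (77, Cd8a class), 391 to 794 (512, Trdc), 0 to 31 (0, Nalcn-null) and 0 to 57 (0, Nalcn-het). With the replicate number as a block, 0 members were called in Nalcn-null and 0 in Nalcn-het. Same-numbered libraries share only a number: the correlation of their deviations was -0.242 to 0.00146 over 5 pairs, with 0 over 0.1.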

Other observations

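The other library with conflicting genotype labels, titled as Nalcn-null replicate 1 with a strain label that names no Nalcn allele, held 1617 T barcodes. In them Ctla4 was at 161 CPM, Tnfrsf4 at 81.7, Tnfrsf9 at 53.1, Icos at 224.5 and Lag3 at 90.1 CPM, so Lag3 was above 8 of the 9 tissue libraries. In the library titled as Nalcn-het replicate 3 (534 T barcodes), Lag3 was at 143 CPM, Tnfrsf4 at 108.6, Tox at 149.8, Icos at 182 and Ctla4 at 86.1 CPM. Both libraries held barcodes of the Foxp3 class, 46 and 11.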
